A study of Mus musculus with 2 samples.

Results

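The granins are a family of acidic, soluble proteins packed with hormones and amines into the dense core granules of endocrine and neuroendocrine cells. Of 6 genes listed for the family (Chga, Chgb, Scg2, Scg3, Vgf and Resp18), 5 were measured by 5 probes, out of 16793 genes and 41174 probes named or printed for genes on the array. A probe was taken when its RefSeq accession or the gene symbol in its description led to one of these genes, and all 5 were found by accession. No probe matched Vgf, which was not analysed here. The measurements come from whole pancreas of newborn mice at postnatal day 3: mice homozygous for a mutant allele of Glis3, written Glis3zf/zf or Glis3KO in the labels, and wild-type (WT) mice. Glis3 is a gene of the Krüppel-like zinc finger class of transcription factors, and the series is titled for its role in beta cell development. RNA of 2 pups was pooled per genotype, giving 1 mutant pool and 1 WT pool, and each of 2 Agilent arrays carried the RNA of both pools in different dyes. Array 1 had the mutant in Cy5 and WT in Cy3, and array 2 had the mutant in Cy3 and WT in Cy5, which makes them a technical dye swap. The spread given below is between arrays, no value has a check across animals, and no test between genotypes was possible.

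Granins aggregate in the acidic, calcium-rich lumen of the trans-Golgi network, which helps to sort hormones into granules of the regulated secretory pathway. Most of them are also prohormones that are cut at pairs of basic residues into shorter peptides. In the pancreas they are known from the endocrine islet cells, and elsewhere from adrenal chromaffin cells and neurons.

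The 250 bases before the transcription start of 3 members are shown because these genes gave the lowest ratio (Chga), the only positive ratio (Chgb) and the next lowest ratio (Scg2) of the family, and because several granin promoters are known for a cAMP response element. The sequences are RefSeq's for build GRCm38.p6, written 5′ to 3′ on the strand of the gene. Capitals mark the half-site TGACG on either strand, with overlapping matches joined. The windows are chr12:102554691-102554940 on the plus strand for Chga, chr2:132781392-132781641 on the plus strand for Chgb and chr1:79440027-79440276 on the minus strand for Scg2.
Chga: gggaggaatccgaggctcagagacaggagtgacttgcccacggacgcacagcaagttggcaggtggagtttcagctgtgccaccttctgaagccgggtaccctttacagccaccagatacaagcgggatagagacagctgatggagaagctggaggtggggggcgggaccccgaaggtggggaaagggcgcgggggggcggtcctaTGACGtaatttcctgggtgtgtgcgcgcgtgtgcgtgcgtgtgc
Chgb: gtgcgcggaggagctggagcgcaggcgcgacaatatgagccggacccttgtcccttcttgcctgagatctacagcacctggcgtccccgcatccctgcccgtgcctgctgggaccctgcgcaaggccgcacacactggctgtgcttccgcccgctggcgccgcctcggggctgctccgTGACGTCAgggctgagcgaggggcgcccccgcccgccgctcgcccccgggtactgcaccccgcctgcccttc
Scg2: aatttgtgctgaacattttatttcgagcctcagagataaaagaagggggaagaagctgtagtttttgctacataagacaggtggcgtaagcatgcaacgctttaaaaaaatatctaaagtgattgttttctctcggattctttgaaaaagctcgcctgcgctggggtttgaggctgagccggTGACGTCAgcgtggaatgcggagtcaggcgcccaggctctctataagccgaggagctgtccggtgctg
The full palindrome TGACGTCA stood in Chgb, beginning 72 bases before the start, and in Scg2, beginning 68 bases before it. Chga held the half-site once, 44 bases before the start, and Scg3 held it once, 30 bases before the start. No match was found in the window of Resp18. Across 32851 promoter windows of the same length, searched on both strands, 1.55% held the full element and 17.8% the half-site, which is part of the full element. The letters TGGGGGG, a core of known binding sites of Glis factors, stood in the windows of Chga and Resp18 and in 7.67% of all windows. These matches describe letters in a window and not bound sites.

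Chga was lower in the mutant pool, Scg2, Resp18 and Scg3 had smaller negative ratios, and Chgb had a positive one. Ratios are log2 of mutant over WT, as the mean of both dye orientations, after background correction and within-array normalisation. A gene was called lower or higher when the mean change reached 2-fold and each array showed 1.5-fold or more in that direction. By this rule 1 of 5 granin genes was lower and 0 were higher. Among all 16492 detected genes with a ratio, 0.152% were called lower and 0.230% higher. With the 2-fold limit relaxed to 1.5-fold and the same direction on both arrays, 3 of the 5 were lower (Chga, Scg2 and Resp18) and 0 were higher, where 0.528% of all detected genes were lower and 0.534% higher. The median ratio of the 5 was -0.62, beside 0.00 over all detected genes. In whole tissue, fewer cells of a type and less RNA per cell cannot be told apart.

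Chga encodes chromogranin A, the precursor of pancreastatin, vasostatin and catestatin. The files give its probe (NM_007693) the position 98009745 to 98009804 on chromosome 12. The sources used here do not name the build of these coordinates. The raw mean spot signal was 4916 in Cy5 and 3706.5 in Cy3 in the mutant pool, against 14488 in Cy5 and 18369.9 in Cy3 in the WT pool. Both mutant signals lay below both WT signals, in each dye. The ratio was -1.74 on array 1 and -1.71 on array 2. The mean of -1.73 ± 0.01 (the distance of each array from the mean) corresponds to a 3.31-fold lower level, which is 30.2% of WT. The technical SD of a mean ratio, from the difference between arrays among uncalled genes in the same of 10 intensity classes, was 0.10. Chga had the 10th lowest ratio of the 16492 genes.

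Chgb encodes chromogranin B, the close companion of chromogranin A in granules. Its probe (NM_007694; chromosome 2, 132308821 to 132308880 in the files) was printed in 10 spots on each array, as were 40 probes in all. On array 1, the spots ran from 11490.5 to 14177 with a median of 13507 in the mutant channel, against 9725 to 12000.2 with a median of 11616 in the WT channel. On array 2, they ran from 9997 to 11476 with a median of 11056 in the mutant channel, against 9760.0 to 11689 with a median of 10725 in the WT channel. The raw ranges of the channels overlapped on both arrays, while the normalised ratio was above 0 in every spot. Within a dye, the raw means went in opposite directions. In Cy5 the mutant pool had 13237 and the WT pool 10735, and in Cy3 the mutant pool had 10971 and the WT pool 11343. It averaged 0.36 ± 0.02 (SD over 10 spots) on array 1, from 0.32 to 0.39, and 0.30 ± 0.02 on array 2, from 0.25 to 0.33. Spots of 1 array share their RNA and labelling, so this SD is spot noise only. The mean ratio was 0.33 ± 0.03 (the distance of each array from the mean), or 1.26-fold, which did not pass the rule of size. The technical SD at its intensity was 0.10, and 280 of the 16492 genes, or 1.70%, had a ratio at least as high.

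**Figure D1:**
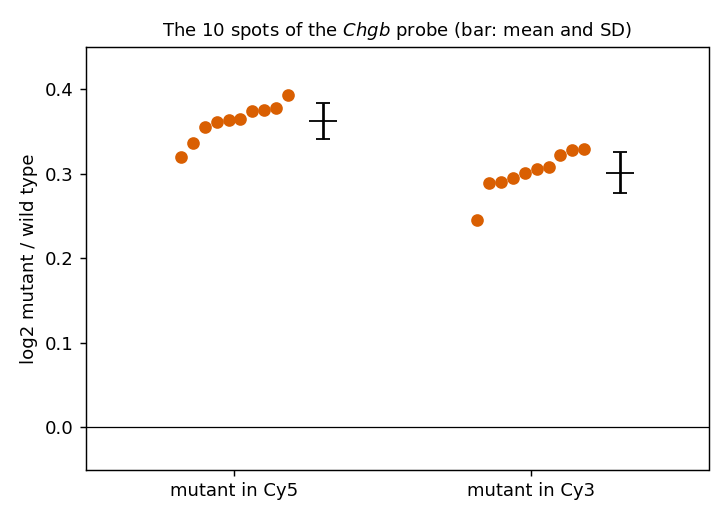
Log2 ratio of mutant over wild type (vertical axis) of each of the 10 spots of the Chgb probe, sorted by value, for array 1 (mutant in Cy5) and array 2 (mutant in Cy3). Bars give the mean and SD over spots; all spots of both arrays lie between 0.25 and 0.39, above 0.

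Scg2 encodes secretogranin II, the precursor of secretoneurin. Its probe (NM_009129; chromosome 1, 79773234 to 79773293) had raw signals of 233 in Cy5 and 235.5 in Cy3 in the mutant pool, against 385 in Cy5 and 479 in Cy3 in the WT pool. Mutant signals lay below WT signals in both dyes. The ratio was -0.75 on array 1 and -0.68 on array 2, with a mean of -0.71 ± 0.03, or 60.9% of WT. This 1.64-fold difference did not reach 2-fold. The probe was dim, with a local background of 47 to 51, and with a background offset of 0 in place of 50 the mean was -0.85.

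Scg3 encodes secretogranin III, which binds chromogranin A and the cholesterol-rich membrane of the granule. Its probe (NM_009130; chromosome 9, 75781093 to 75781152) had raw signals of 1162 in Cy5 and 1014 in Cy3 in the mutant pool, against 1723 in Cy5 and 2017 in Cy3 in the WT pool. The 2 mutant signals lay below the 2 WT signals. The ratio was -0.53 on array 1 and -0.60 on array 2, with a mean of -0.57 ± 0.04, or 67.6% of WT. At 1.48-fold it was just short of 1.5-fold.

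Resp18 encodes a luminal protein of endocrine secretory cells whose sequence is related to the luminal part of the granule membrane protein Ptprn. Its probe (NM_009049; chromosome 1, 75564727 to 75564907) covers 181 bases in the files, against 60 for the other members, and whether its target is split in the genome was not tested. Raw signals were 333 in Cy5 and 373 in Cy3 in the mutant pool, against 614 in Cy5 and 622 in Cy3 in the WT pool. Here too both mutant signals lay below both WT signals. The ratio was -0.61 on array 1 and -0.64 on array 2, with a mean of -0.62 ± 0.02, or 64.9% of WT.

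**Figure D2:**
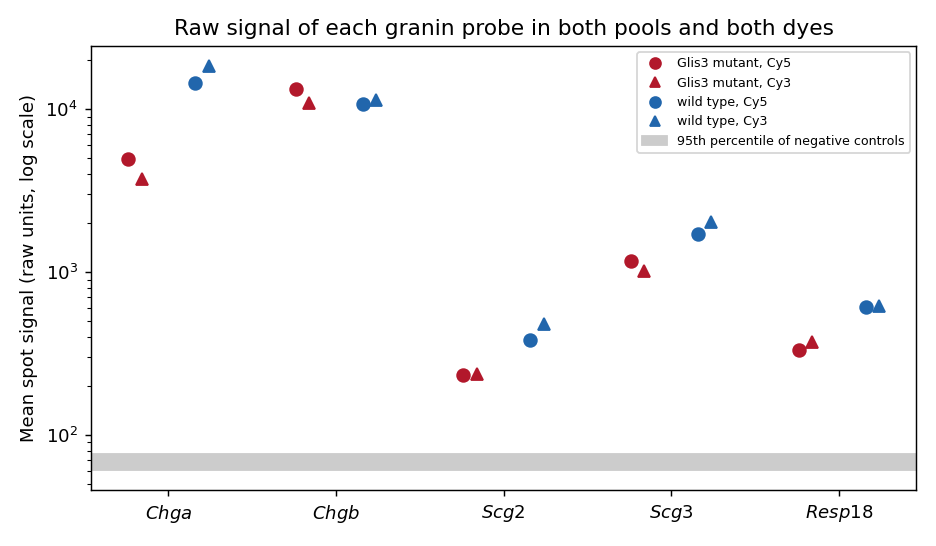
Raw mean spot signal (vertical axis, log scale) of each granin probe in the mutant pool (red, left) and the wild-type pool (blue, right), with circles for Cy5 and triangles for Cy3; Chgb is the mean of 10 spots, and the grey band spans the 95th percentiles of the negative controls, 60.8 to 76.2. The 2 mutant points of Chga, Scg2, Scg3 and Resp18 lie below both wild-type points, and those of Chgb lie at the height of the wild-type points.

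Chga and Chgb each stood apart from the rest of the family by more than the spread between arrays. The ratio of Chga was below that of Chgb by -2.10 on array 1 and -2.01 on array 2, a mean difference of -2.06 or 4.17-fold. The technical SD of this difference between ratios was 0.15. Chga also lay below Scg2, Resp18 and Scg3, with mean differences in ratio of -1.01, -1.10 and -1.16. Chgb lay above Scg2 by 1.05, above Resp18 by 0.95 and above Scg3 by 0.90. Scg2 had the lowest ratio of the other 3 genes, then Resp18, then Scg3, in that order on both arrays. The technical SD of a difference was 0.11 for each pair of these genes. The difference was -0.15 for Scg2 minus Scg3, or 1.35 times that SD in size. It was -0.09 for Scg2 minus Resp18 (0.86 times) and 0.06 for Scg3 minus Resp18 (0.50 times). These differences are those of the main processing. With a background offset of 0 the ratios were -1.74 for Chga, -0.85 for Scg2, -0.70 for Resp18 and -0.58 for Scg3. Scg2 then lay further from Scg3 and closer to Chga. Under the main processing, 0.334% of all detected genes had a ratio at or below that of Scg2, 0.455% at or below that of Resp18 and 0.564% at or below that of Scg3. All 5 probes were well above background and unsaturated in the 4 channel measurements. Chgb and Scg2, the members whose windows held the full cAMP response element, had ratios of 0.33 and -0.71.

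**Figure D3:**
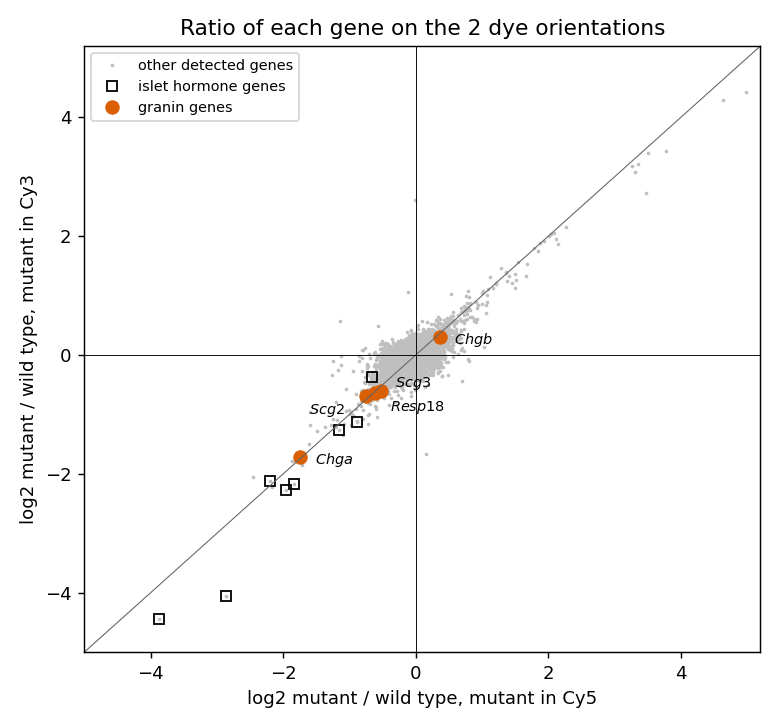
Log2 ratio of mutant over wild type with the mutant in Cy5 (horizontal axis) against the mutant in Cy3 (vertical axis) for all detected genes (grey), islet hormone genes (squares) and the 5 granin genes (orange); the diagonal marks equal ratios, and the insulin genes at the lower left had saturated wild-type spots. Chga lies at -1.74 and -1.71, Chgb at 0.36 and 0.30, and the other granins between -0.75 and -0.53 on both axes, all close to the diagonal.

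The genes whose pair of array ratios lay nearest to that of Chga, by Euclidean distance over the 2 arrays, were Psmb10 (distance 0.055), Abcc8 (0.136), Syt13 (0.147), Rbp4 (0.256) and Sst (0.461). Psmb10 encodes an immunoproteasome subunit, and its mean ratio was -1.73. Abcc8 encodes the sulfonylurea receptor of the beta cell potassium channel and had -1.78, though 0.25 by its other detected probe. Syt13, a synaptotagmin gene, had -1.83, and 0.03 by its other detected probe. Rbp4, the plasma retinol carrier gene, had -1.55 while Sst, which encodes the somatostatin of delta cells, was 4.01-fold lower. With 1 comparison in the series, this likeness is closeness of 2 numbers and says nothing of shared control.

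Among the proteins that process what granins are packed with, 1 of 6 measured genes was lower and 0 were higher, with a median of -0.50. By the probe used, all 6 were below 0 on both arrays, as were 30.5% of all detected genes. Pcsk2, a prohormone convertase that cuts granins and proglucagon, passed the rule at -1.08, 2.11-fold lower, though its other detected probe had -0.26. Scg5, which encodes the convertase chaperone 7B2 and is singled out after its values were seen, had -1.05 on array 1 and -0.94 on array 2, just short of 2-fold. Pam, the peptide-amidating enzyme, had the highest ratio of the list at -0.20, and 0.02 by its other detected probe. Of 11 genes of granule membrane and biogenesis, 0 passed and the median was -0.13. Slc30a8, the zinc transporter of insulin granules, had the lowest ratio at -0.51, and Cyb561, the granule cytochrome that carries electrons for ascorbate, the highest at 0.12. Of 16 genes of granule exocytosis, 2 were lower, 0 were higher and the median was -0.18. Sytl4, which encodes granuphilin, was 2.31-fold lower. Scgn, whose product secretagogin binds calcium, was 2.21-fold lower. Both probes were dim, which limits the precision of these folds. The mean raw signal was 191 in the mutant pool against 489 in WT for Sytl4, and 127 against 306 for Scgn. Syt7, a calcium sensor of fusion, had the highest ratio at 0.01, and -0.09 by its other detected probe. The medians of all 3 lists lay closer to 0 than the granin median, and whether the lists differ was not tested. Below 0 on both arrays were also 14 of the 16 exocytosis genes and 6 of the 11 of granule membrane and biogenesis. Of lists read further on, so were 9 of 10 endocrine transcription factors, 6 of 7 endothelial markers and 4 of 10 chromaffin and sympathetic markers.

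Of the islet hormone genes, the cargo of these granules, 7 of 8 were lower and the median was -2.06. Ins2 had saturated WT spots on both arrays. It was at least 11.0-fold lower over both arrays, from normalised channel signals with the saturated spots at their value. The log2 ratio behind this limit was -2.87 on array 1 and -4.05 on array 2, so the limit is weaker from array 1 alone and stronger from array 2 alone. Ins1 had -3.87 on array 1, and its WT spot was saturated on array 2. Ppy (-2.15), Ghrl (-2.12), Sst, Gcg (-1.21) and Pyy (-1.01) passed too, and the ratio of Chga lay between those of Sst and Gcg. Iapp, at -0.51, did not pass and lay near Scg3. Pyy had -0.72 by its other detected probe. Among 10 transcription factors of endocrine cells 0 passed, with a median of -0.29. Isl1 had the lowest ratio at -0.99 and Fev the highest at 0.05.

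**Figure D4:**
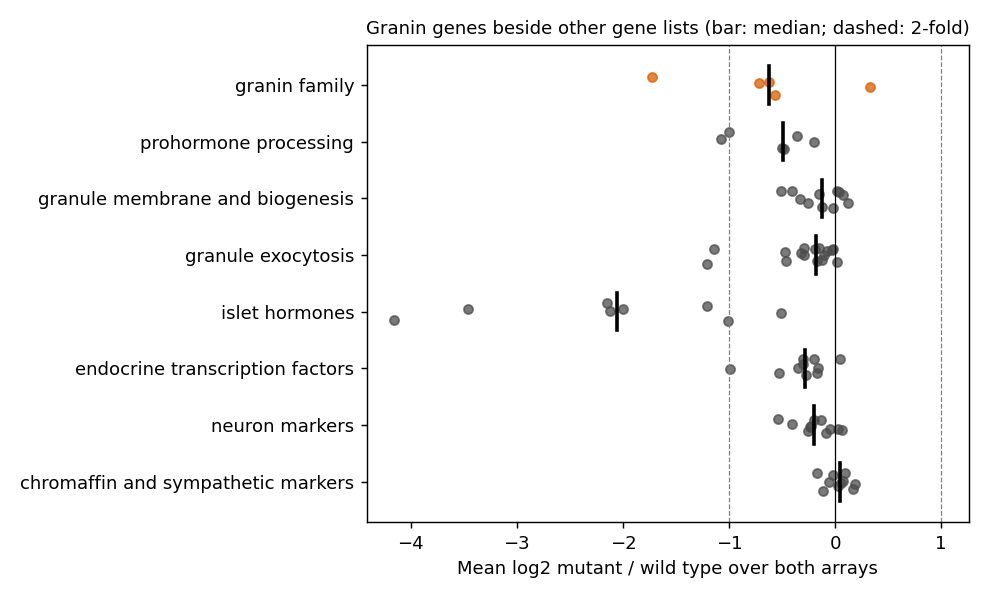
Mean log2 ratio of mutant over wild type over both arrays (horizontal axis) for each measured gene of 8 gene lists, with the median as a bar, 2-fold changes as dashed lines and the granin genes in orange; the 2 insulin genes at the far left had saturated wild-type spots. The granin genes run from -1.73 to 0.33 around a median of -0.62, between the hormone median of -2.06 and the chromaffin and sympathetic median of 0.04.

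Cells other than islet cells also carry granins, and lists of their markers were read beside them. Whether islet cells express some of these marker genes too was not tested. Of 10 chromaffin and sympathetic markers 0 passed, the median was 0.04, and the summed raw signal was 3978 in Cy5 and 3723 in Cy3 in the mutant pool, against 3780 in Cy5 and 4677 in Cy3 in the WT pool. Npy had the highest ratio at 0.19 and Pnmt, the adrenaline-forming enzyme of chromaffin cells, the lowest at -0.17. Of 11 neuron markers 0 passed and the median was -0.20, from -0.54 for Elavl4 to 0.07 for Eno2. The other detected probe of Elavl4 had -0.15 and that of Eno2 had 0.05. Of the 11, 9 were below 0 on both arrays, as were 30.5% of all detected genes. Their summed raw signal was 4036 in Cy5 and 3870 in Cy3 in the mutant pool, against 4491 in Cy5 and 5447 in Cy3 in the WT pool. Of 5 Schwann cell markers 0 passed, with a median of 0.00, from -0.42 for S100b to 0.19 for Cnp. The part of nerve or chromaffin tissue in the granin ratios was not tested.

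Facts of the whole comparison touch these values. The Glis3 probe had ratios of -0.02 and 0.01, and no source used here says whether it lies inside the mutated region, so it does not check the genotype labels. The tissue showed acinar genes: of 12 with a probe, 5 were saturated in both pools on both arrays. Of the other 7, Ctrl was lower at -1.11, Gp2 was higher at 1.93 and the median was -0.06. Skeletal muscle genes were higher in the mutant pool, 8 of 10 past the rule. They were Myl1 at 4.46, Tnnc2 at 3.60, Mylpf at 3.45, Myh8 at 3.29 (0.06 by its other detected probe), Acta1 at 3.22, Tnni2 at 3.19, Myh7 at 2.04 and Ckm at 1.37, while Myog, at 0.01, had the lowest ratio. Their summed raw signal was 23549 in Cy5 and 21829 in Cy3 in the mutant pool, against 3881 in Cy5 and 4134 in Cy3 in the WT pool, and its part in the granin ratios was not tested. None of 7 endothelial markers (median -0.35, Flt1 -0.55, Pecam1 -0.09) and none of 6 myeloid markers (median 0.23, Lyz2 0.86, Itgam 0.02) passed. Lyz2 had 0.48 by its other detected probe.

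**Figure D5:**
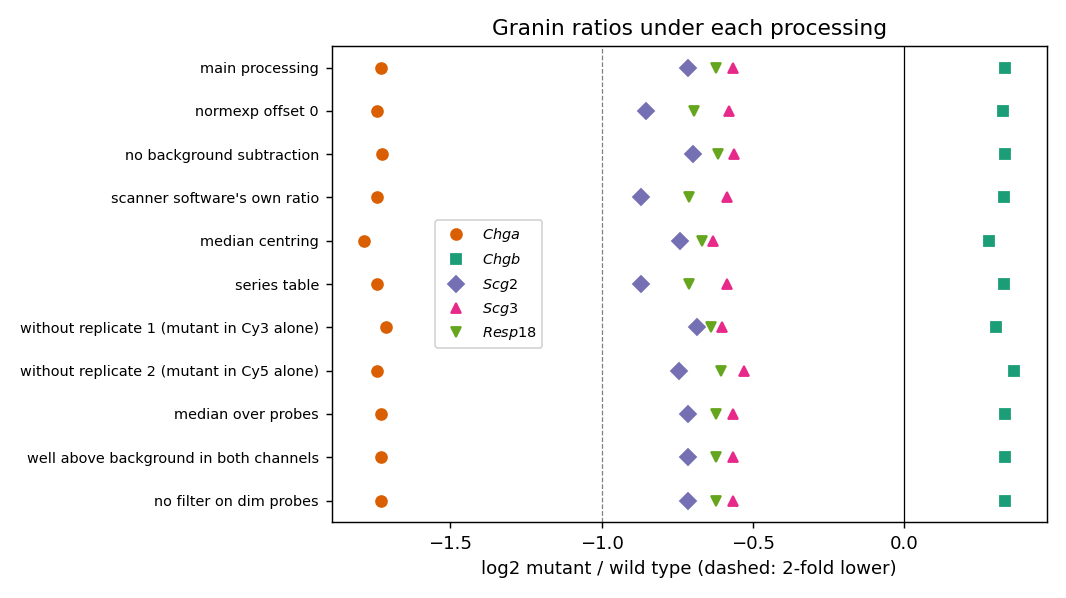
Log2 ratio of mutant over wild type (horizontal axis) of the 5 granin genes under the main processing and under 10 alternatives (vertical axis), with 2-fold lower as a dashed line. Chga stays between -1.78 and -1.71, Chgb between 0.28 and 0.36, and the other 3 genes between -0.87 and -0.53 under all of them.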

How the data were processed

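The authors' deposited scanner files give, per the file headers, mean spot intensity and median local background intensity per channel, not normalised, and the software's log10 ratio, Cy5 over Cy3, of background-subtracted and dye-normalised intensities. Feature Extraction was version 7.5 per the submitters' processing notes and 8.5.1.1 per the file headers. The authors' deposited series table holds log2 ratios. Its columns equalled the software's ratio of mutant over WT within 0.002 for 99.99% and 99.98% of probes, each with a median of 0.

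Intensities were corrected by normexp (offset 50) and normalised by loess within each array (controls at weight 0) with limma 3.58.1 in R 4.3.3, a step checked on simulated data. Outlier spots were left out (15 and 53) and spots of a probe averaged. For each gene the brightest unsaturated probe was used. Where every probe of a gene had a saturated channel, as for Ins1 and Ins2, the brightest of these was used. Of 41174 probes, 23319 were named through RefSeq (GRCm38.p6). Detected means well above background in 1 genotype on both arrays. Genes saturated in both pools on both arrays have no ratio. The number of arrays limits precision.

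The text names all members, each other list's called and extreme genes, and the 5 genes nearest to each called member. Members and lists were chosen with earlier results of these data known. Alternatives changed background correction, normalisation, dye orientation, probe choice, filter and fold limit.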

Additional observations from a re-analysis of the deposited data

How the results depend on the processing

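Under the 10 alternatives that give a ratio, the sign of all 5 granin genes stayed the same, and Chga alone was at least 2-fold lower in each. Each of these alternatives normalised the dyes, and no ratio without that step was computed. In raw signal the mutant pool lay below WT on both arrays for Chga, Scg2, Scg3 and Resp18. Raw Chgb lay above WT on array 1 (13237 against 11343) and by less on array 2 (10971 against 10735), though below WT within Cy3. All 5 genes have a single detected probe measured in all channels, so the probe and dim-probe alternatives could not move them. The granin median of -0.62 was -0.70 with a normexp offset of 0, -0.71 with the scanner software's own ratio and with the series table, which holds that ratio, and -0.67 under median centring. It ran from -0.64 to -0.61 over single arrays. Scg2 moved most, to -0.85 with offset 0 and -0.87 with the software's ratio. Resp18, the next dimmest member, had -0.70 and -0.71. The brighter Chga (-1.74), Chgb (0.33) and Scg3 (-0.58) had the same rounded ratio under both. Adding 50 to both channels shrinks the ratios of dim probes more than those of bright ones, and no other cause was tested. Lowering the fold limit to 1.5-fold gave 3 lower granin genes in place of 1. Prohormone processing had 2 lower genes in place of 1 with offset 0, the software's ratio, the series table, median centring and the 1.5-fold limit, and 0 with the median over probes. Its median of -0.50 was -0.56 under median centring and -0.43 with the median over probes, and ran from -0.55 to -0.49 over single arrays. Over all genes, 25 lower and 38 higher became 42 and 49 with offset 0, 44 and 50 with the software's ratio, and 87 and 88 at 1.5-fold. A slide block was not run, since each ratio is already within 1 array. No paired analysis was possible because each genotype is 1 pool. The raw signal of Scg2 in the mutant pool, 234 on average, stood over a local background of 47 to 51, which limits its precision.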

Other observations

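A clone probe described as a product of chromogranin B (AK044172), whose description gives no gene symbol and which therefore lies outside the granin probes above, has the position 132297708 to 132297767 on chromosome 2 in the files. It lies 11054 bases to the lower-coordinate side of the Chgb probe. Its raw signal was 75.8 in Cy5 and 93.2 in Cy3 in the mutant pool, against 78.8 in Cy5 and 98.6 in Cy3 in the WT pool. The ratio was 0.00 on array 1 and 0.03 on array 2. The 95th percentile of negative controls was 60.8 to 76.2, so the probe was dim in both pools.

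Across the 40 probes printed 10 times, the median SD of the ratio over spots of 1 array was 0.05 on array 1 and 0.05 on array 2. The SD of the Chgb spots was 0.02 in both orientations.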
